A study of Mus musculus with 15 samples.

Results

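The aminoacyl-tRNA synthetases were followed in the mouse fibroblast line NIH3T3 before and after an unfolded protein was made to appear in them. The genes were taken by symbol: 36 synthetase genes among the 20207 genes of each expression table, of which 20 encode cytosolic enzymes and 16 mitochondrial enzymes, the latter with symbols that end in 2. All cells stably expressed DD-sfGFP, in which a destabilizing domain (DD) derived from FKBP is joined to superfolder GFP, and according to the study's methods they had been sorted for high expression, so the results describe a selected population of a single line. The DD is folded while the ligand Shield-1 (S1) is bound and unfolds when S1 is taken away, which was done by adding purified FKBP protein to the medium. The 5 control samples kept S1 and carried no stress (time 0), 3 samples were collected 45 min after S1 withdrawal, 3 at 135 min and 4 at 405 min. Nothing in the labels says whether replicates came from separate cultures, so p-values measure the spread between these samples, which may be technical.

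Each synthetase joins an amino acid to its matching tRNA, and the charged tRNAs are what the ribosome reads the message with. The cytosolic and mitochondrial enzymes are all made from nuclear genes, and several cytosolic enzymes sit together in the multi-synthetase complex, held by scaffold proteins. When charging falls short, uncharged tRNA activates the kinase GCN2 (Eif2ak4), which phosphorylates the initiation factor eIF2 and favours translation of ATF4, a transcription factor known to raise the mRNAs of many cytosolic synthetases. Unfolded proteins in the endoplasmic reticulum reach ATF4 through the kinase PERK (Eif2ak3), and heme shortage and cytosolic stress through HRI (Eif2ak1). The comparisons therefore asked whether this enzyme family moved, and whether its cytosolic and mitochondrial members moved alike, after the unfolded protein appeared.

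ATF4 acts through C/EBP-ATF response elements, written here as TGATGNAA and searched on both strands of the RefSeq promoters (GRCm38.p6, 250 bases before to 50 after each gene start). Promoters were matched for 27 of the 36 genes by symbol; Cars, Hars, Lars, Nars, Rars, Vars, Wars, Hars2 and Pars2 had no entry under their symbol. The letters occurred in 4.06% of all 27025 promoters, in 5 of 13 cytosolic synthetase promoters and in 0 of 14 mitochondrial ones. The 5 genes were all among the cytosolic synthetases usually listed as ATF4 targets (5 of 8 such promoters against 0 of 5 for the other cytosolic enzymes). They are shown because the same 5 genes can then be followed in the expression data, with the element in capitals and the strand of the gene read 5′ to 3′.
Aars, chr8:111033840-111033869, + strand: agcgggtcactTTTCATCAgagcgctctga
Gars, chr6:55037960-55037989, + strand: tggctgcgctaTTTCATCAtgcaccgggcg
Iars, chr13:49682126-49682155, + strand: cactgtcagtaTTGCATCAcctccagacgc
Tars, chr15:11399655-11399684, - strand: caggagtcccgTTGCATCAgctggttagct
Yars, chr4:129189895-129189924, + strand: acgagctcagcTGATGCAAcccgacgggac
In 4 of these genes the element lies on the opposite strand, so the capitals show its reverse complement, and in Yars it reads in the direction of the gene. A match of letters is a description of the promoter and not evidence of binding. The antioxidant response element, TGACNNNGC, through which NRF2 acts, occurred in 12.5% of all promoters, in 3 of 13 cytosolic synthetase promoters (Aars, Iars and Mars) and in 3 of 14 mitochondrial ones (Aars2, Lars2 and Nars2).

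Total counts per sample ranged from 6652685 (control replicate 3) to 30258578 (45 min, replicate 1), and 34 of the 36 synthetases had at least 1 count in every sample and entered the fit. Sars2 and Pars2 were left out of it because control replicate 3 held 0 counts for each. Fibroblast markers were abundant (Vim, an intermediate filament protein, at 3310 to 6390 CPM), whereas 7 markers of epithelium, blood, endothelium, muscle and liver did not exceed 3.84 CPM in any sample. The samples fell into 2 sets by how strongly log2 CPM depended on the exonic GC content of the genes, a split that the groups do not explain. Library set 2 held control replicate 2, replicate 3 at 45 min and replicates 1, 2 and 4 at 405 min, with a slope of log2 CPM on GC, for each 10 percentage points, between -0.387 and 0.028. The other 10 samples, called set 1, had slopes between -1.419 and -0.67. The sets were defined from the data and not from the labels, which give the same kit for every sample. The study's methods describe, beside that NuGEN Encore kit, a library protocol with adaptor ligation, without saying which samples went through which. Of the 34 synthetases 21 differed between the sets (15 higher and 6 lower in set 2, 61.8%) in a fit with groups and set as terms, beside 50.1% of all 10276 genes. The sets were cut from these same expression values, and such a cut always gives 2 sets. Differences between the sets, here and for single genes below, were therefore partly built in. They describe the split and do not test it. Because 3 of 4 samples at 405 min but 1 of 5 controls belonged to set 2, the calls at 405 min are given below also with the library set as a covariate.

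In control cells the cytosolic synthetase mRNAs were more abundant than the mitochondrial ones. On the deposited RPKM scale, which divides by gene length, the median level over controls was 20.8 for the 20 cytosolic genes, with single genes from 6.03 (Wars, tryptophan) to 188 (Rars, arginine). For the 16 mitochondrial genes it was 1.26, with single genes from 0.0954 (Pars2, proline) to 16.9 (Iars2, isoleucine). The ratio of these class medians was 16.5. Beneath Rars, with 59.6 to 219 RPKM over the 5 controls, came Dars (aspartate) with 40.5 to 83.7, and these ranges overlap, as do those of most neighbours in the order. Lysine and glycine have no separate gene among the mitochondrial members: Kars and Gars are each known to make both the cytosolic and the mitochondrial enzyme, and their levels lay in the cytosolic range.

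When each mitochondrial gene was set beside the cytosolic gene for the same amino acid, the mitochondrial member had the lower control median in 15 of 16 pairs and was lower in every control in 14. The Iars2 and Iars pair was the exception. Iars2 had a control median of 16.9 RPKM and Iars one of 14.9, and Iars2 was the lower of the pair in 1 of 5 controls. Yars2 (7.94 against 18.6 RPKM for Yars) was lower in 4 of 5 controls. The widest gap among genes present in every sample was that of Nars2 and Nars, at 0.632 and 57.5 RPKM.

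**Figure D1:**
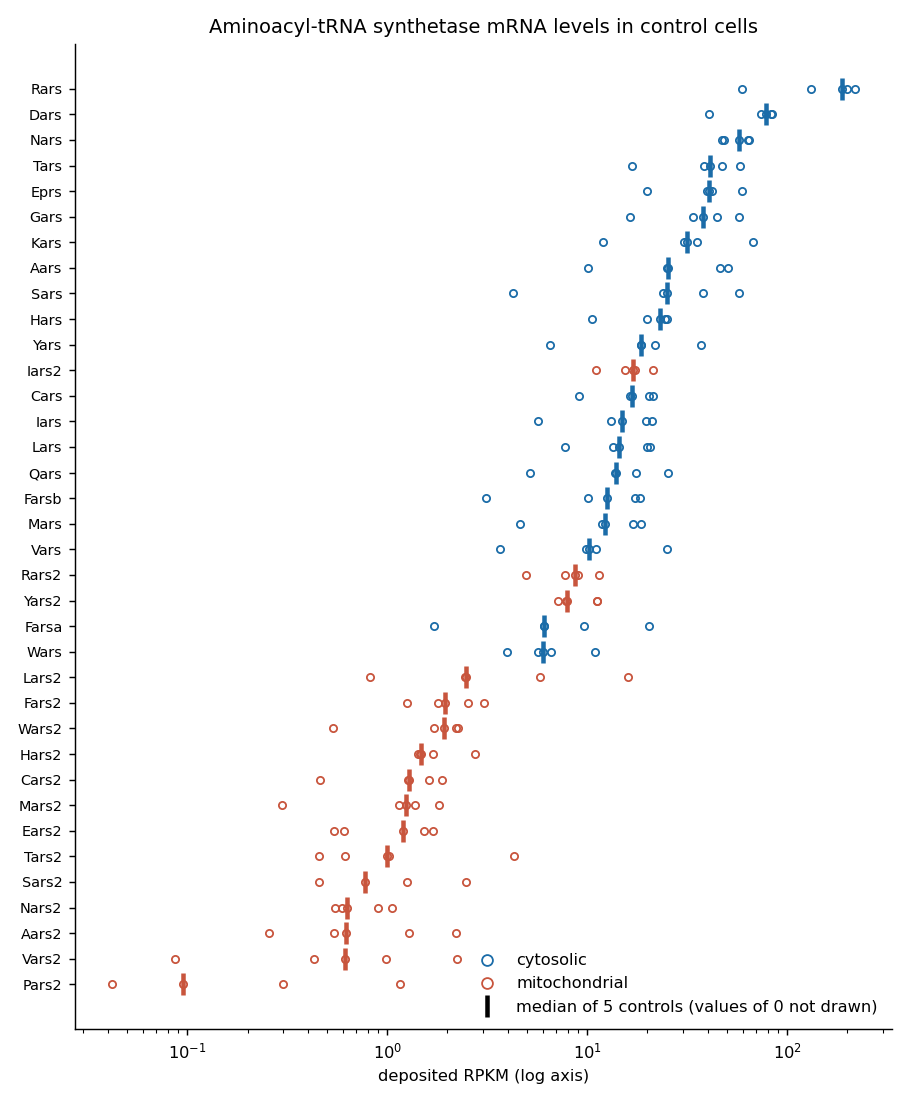
Deposited RPKM of the 36 synthetase genes in the 5 control samples (log axis, each open circle 1 sample, bar the median), ordered by median, with cytosolic genes in blue and mitochondrial genes in red. All cytosolic genes have medians of at least 6.03 RPKM, a level reached by Iars2, Rars2 and Yars2 only among the mitochondrial genes.

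At 45 min no synthetase passed an adjusted p of 0.05. The edgeR quasi-likelihood test called 0 of 34 members, and 0% of all 10276 genes. At an unadjusted p under 0.05 there were 2 members (365 genes in all), and DESeq2 called none of the members. The cytosolic genes had a median log2 fold change of 0.23 with 17 of 20 above 0, the mitochondrial genes a median of 0.11 with 9 of 14 above 0, and all genes a median of 0.02. With the library set as a covariate these medians were 0.16, 0.06 and 0.01, and again 0 members were called (0.0389% of all genes). Cars2 and Mars2, the mitochondrial cysteine and methionine enzymes, were the members with unadjusted p under 0.05, and all 3 samples at 45 min lay above all 5 controls for both, as they did for 0.467% of all genes. The log2 fold changes were 0.71 for Cars2 and 0.75 for Mars2, each with an edgeR adjusted p of 0.698.

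At 135 min, too, no synthetase passed. The edgeR test called 0 of 34 members where 1.46% of all genes were called, 2 members had an unadjusted p under 0.05 (1226 genes in all), and DESeq2 called none. The median log2 fold change was 0.16 for cytosolic genes, with 16 of 20 above 0, and -0.24 for mitochondrial genes, with 4 of 14 above 0, while that of all genes was -0.06. All 135-min samples belonged to set 1, and with the set as a covariate the medians were 0.23 and -0.04, again with 0 members called beside 7.93% of all genes. The unadjusted p was then under 0.05 for 8 cytosolic and 6 mitochondrial members (2888 genes in all). The members under 0.05 without the covariate were Ears2 (glutamate), with a log2 fold change of -1.51 ± 0.58 (SE) and an edgeR adjusted p of 0.282, and Rars2, with -0.77 ± 0.34 (SE) and 0.383.

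At 405 min the family moved in both directions. Of 34 members 9 passed (23.4% of all genes did): 4 rose, namely Qars, Aars, Aars2 and Cars2, beside 9.99% of all genes, and 5 fell, namely Dars, Eprs, Tars, Iars2 and Rars2, beside 13.4% of all genes. By class, 2 cytosolic genes rose and 3 fell of 20 tested, and 2 mitochondrial genes rose and 2 fell of 14. The share of members called was thus close to that of all genes. The median log2 fold change was 0.08 for cytosolic genes (range -1.56 to 1.02), 0.15 for mitochondrial genes (range -1.36 to 1.42) and 0 for all genes. With the library set as a covariate these medians were -0.06, 0.04 and -0.01, and 4 of the 9 passed, where 13% of all genes did: Qars rose (6.17% of all genes), and Tars, Iars2 and Rars2 fell (6.87%). Within set 1 alone, with 4 controls against 1 sample, and within set 2 alone, with 1 control against 3 samples, 0 members were called beside 2.07% and 3.77% of all genes; the lone sample is assumed there to vary like the other groups. Without control replicate 2, the set 2 control, 11 cytosolic and 7 mitochondrial members were called, beside 48.4% of all genes. As these are bulk samples, fewer cells that express a gene and less of its RNA per cell cannot be told apart.

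**Figure D2:**
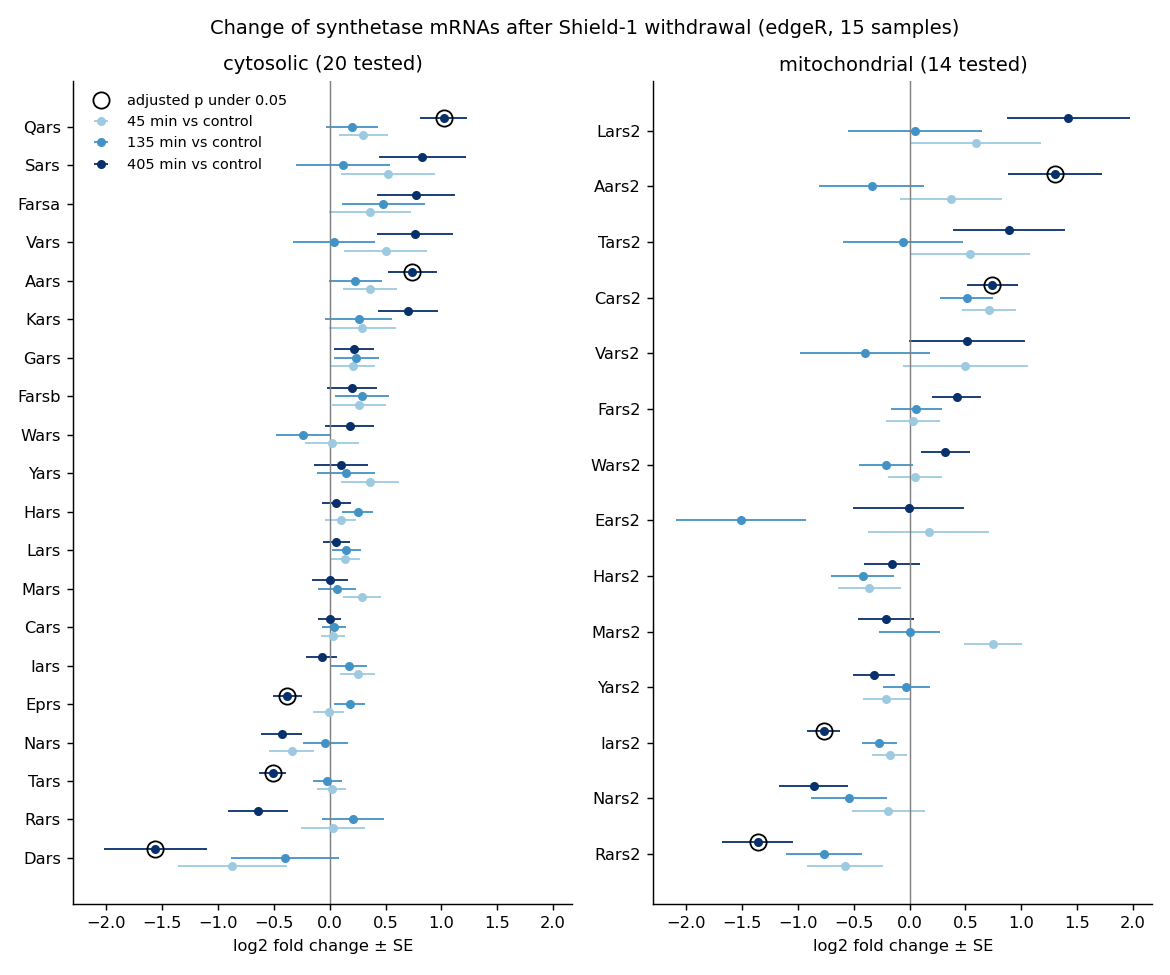
Log2 fold change against control with its SE (edgeR, all 15 samples in 1 fit) at 45, 135 and 405 min for 20 cytosolic and 14 mitochondrial synthetases, ordered by the value at 405 min. Circled points have an adjusted p under 0.05; all 9 are at 405 min, from -1.56 (Dars) to 1.30 (Aars2).

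Values per sample are TMM-normalized CPM, in order of replicate number. Qars (chr9:108410405-108418244 in mm9, + strand), the glutaminyl-tRNA synthetase of the multi-synthetase complex, was at 71.4, 113, 50.4, 72.6 and 75.6 CPM in controls and at 174, 159, 118 and 172 CPM at 405 min. Every 405-min sample lay above every control, as for 6.75% of all genes. In between, Qars stood at 85.7, 75.4 and 122 CPM at 45 min and at 87.7, 84.2 and 92.1 CPM at 135 min, inside the range of the controls except for 1 sample. The log2 fold change at 405 min was 1.02 ± 0.21 (SE; edgeR adjusted p = 0.00455), a 2.03-fold higher level. It was 0.69 ± 0.12 with the library set as a covariate (adjusted p = 0.00217 by edgeR), 0.80 in set 1 alone and 0.56 in set 2 alone.

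Tars (chr15:11313418-11329413, - strand), the threonyl-tRNA synthetase and a carrier of an ATF4-type element above, was at 234, 230, 180, 221 and 274 CPM in controls and at 147, 171, 156 and 168 CPM at 405 min. All samples at 405 min were below all controls, as for 6.43% of all genes. The earlier samples, at 227, 213 and 253 CPM (45 min) and 226, 226 and 225 CPM (135 min), were within the control range. The log2 fold change at 405 min was -0.51 ± 0.12 (SE; edgeR adjusted p = 0.0126) and -0.55 ± 0.13 with the set as a covariate (edgeR adjusted p = 0.00868). Tars differed little between the library sets, by 0.09 ± 0.11 (SE) on the log2 scale, and its change was -0.55 within set 1 and -0.52 within set 2. The call was lost when only controls and 405-min samples were fitted (edgeR adjusted p = 0.0628).

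Iars2 (chr1:187110541-187153280, - strand), the mitochondrial isoleucyl-tRNA synthetase and the most abundant of its class, was at 130, 102, 159, 134 and 135 CPM in controls and at 64.1, 75.5, 90.2 and 79.7 CPM at 405 min. The 405-min samples again all lay below the controls. At 45 min the values were 120, 129 and 99.5 CPM and at 135 min 108, 101 and 119 CPM, in the lower part of the control range or just beneath it. The log2 fold change at 405 min was -0.77 ± 0.15 (SE; edgeR adjusted p = 0.00317) and -0.56 ± 0.12 with the set as a covariate (edgeR adjusted p = 0.00482). Its deposited interval shares 84 bases with Rab3gap2 on the other strand.

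Rars2 (chr4:34562207-34607414, + strand), the mitochondrial arginyl-tRNA synthetase, was at 31.5, 17, 68.5, 35.1 and 38.3 CPM in controls and at 10.4, 12.9, 21.3 and 14.6 CPM at 405 min. The groups overlap at control replicate 2 and replicate 3 at 405 min, the only control in set 2 and the only 405-min sample in set 1. At 45 min Rars2 was at 22.2, 29.5 and 24.6 CPM and at 135 min at 21.1, 21.6 and 23.7 CPM, below the 4 controls of set 1. The log2 fold change at 405 min was -1.36 ± 0.32 (SE; edgeR adjusted p = 0.00999) and -0.93 ± 0.29 with the set as a covariate (edgeR adjusted p = 0.0429). With that covariate and without replicate 3 at 45 min it was -0.73 and did not pass (edgeR adjusted p = 0.117). Fitted on control and 405-min samples alone it did not pass (edgeR adjusted p = 0.0513).

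Dars (chr1:130260285-130313993, - strand), the cytosolic aspartyl-tRNA synthetase, had the largest fall in the fit with groups only. It was at 403, 167, 668, 406 and 313 CPM in controls and at 96.1, 123, 204 and 109 CPM at 405 min, with an overlap at control replicate 2. At 135 min it was at 281, 312 and 295 CPM. The values at 45 min were 253, 339 and 50.6 CPM, but the table of replicate 3 gives Dars over a shorter region (chr1:130308696-130313993) than the other 14 samples, so that sample's count is not comparable. The log2 fold change at 405 min was -1.56 ± 0.46 (SE; edgeR adjusted p = 0.0271) and -0.64 ± 0.28 with the set as a covariate (edgeR adjusted p = 0.148), a change by more than 1.5 times that put it above Rars2. Without that 45-min sample the value with the covariate was -0.88 (edgeR adjusted p = 0.0255).

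Aars (chr8:113557867-113580770, + strand), the alanyl-tRNA synthetase with an ATF4-type element in its promoter, was at 267, 459, 201, 270 and 402 CPM in controls and at 588, 554, 439 and 555 CPM at 405 min. Control replicate 2 lay above the lowest 405-min sample, so the groups overlapped. It was at 370, 320 and 539 CPM at 45 min and at 400, 358 and 365 CPM at 135 min. The log2 fold change at 405 min was 0.74 ± 0.22 (SE; edgeR adjusted p = 0.0283), and it was 0.45 ± 0.17 with the set as a covariate, where it did not pass (edgeR adjusted p = 0.0926). Its interval shares 532 bases with Exosc6.

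Eprs (chr1:187186974-187252234, + strand), the joint glutamyl- and prolyl-tRNA synthetase, lies next to Iars2 on chromosome 1, on the other strand. It was at 430, 377, 393, 421 and 514 CPM in controls, at 419, 435 and 414 CPM at 45 min, at 490, 505 and 456 CPM at 135 min and at 275, 338, 383 and 317 CPM at 405 min. Only the highest 405-min sample, replicate 3, reached into the control range. Its log2 fold change at 405 min was -0.38 ± 0.13 (SE; edgeR adjusted p = 0.0413) and -0.28 ± 0.12 with the set as a covariate (edgeR adjusted p = 0.132). Against 135 min the 405-min level of Eprs was lower by -0.56 ± 0.14 on the log2 scale (edgeR adjusted p = 0.0363), the only member called in that comparison, in which 5.06% of all genes were called and 2.82% fell. With the set as a covariate no member was called there, beside 3.68% of all genes. The median log2 fold change against 135 min was -0.06 for cytosolic genes (7 of 20 above 0), 0.31 for mitochondrial genes (9 of 14) and 0.04 for all genes. With the covariate these medians were -0.25 (2 of 20 above 0), 0.04 (8 of 14) and 0.02.

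Aars2 (chr17:45643790-45657792, + strand), the mitochondrial alanyl-tRNA synthetase, was at 4.51, 13.7, 3.49, 3.94 and 7.66 CPM in controls, at 5.98, 5.79 and 14.4 CPM at 45 min, at 6.35, 3.81 and 5.91 CPM at 135 min and at 23.4, 14.8, 9.37 and 19 CPM at 405 min. The samples of set 2 were the highest of the control, 45-min and 405-min groups. Its log2 fold change at 405 min was 1.30 ± 0.42 (SE; edgeR adjusted p = 0.0386) and 0.68 ± 0.28 with the set as a covariate (edgeR adjusted p = 0.118), a change by more than 1.5 times.

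Cars2 (chr8:11514017-11550771, - strand), the mitochondrial cysteinyl-tRNA synthetase, was at 5.1, 6.46, 3.49, 6.53 and 4.24 CPM in controls and at 8.85, 8.97, 8.31 and 8.74 CPM at 405 min. All 405-min samples were above all controls, and they differed little among themselves. At 45 min it was at 8.44, 7.61 and 9.54 CPM and at 135 min at 8.18, 8.46 and 5.62 CPM. Its log2 fold change at 405 min was 0.74 ± 0.23 (SE; edgeR adjusted p = 0.0299) and 0.61 ± 0.24 with the set as a covariate (edgeR adjusted p = 0.113). The library sets differed for Cars2 by 0.25 ± 0.21 (SE), which did not pass.

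The calls of Qars, Tars, Iars2 and Rars2 at 405 min held when any single sample was left out, and the other 5 did not. Aars and Dars lost theirs without control replicate 1, 3 or 4 or without replicate 1, 2 or 4 at 405 min, with log2 fold changes of 0.59 to 0.91 and -1.84 to -1.31 over all samples left out in turn. For Cars2 the samples were control replicates 1, 3 and 5 and the same 405-min replicates (0.62 to 0.84). For Aars2 they were control replicates 1, 3, 4 and 5, 135-min replicates 1 and 3 and again those at 405 min (1.09 to 1.74). Eprs depended on 11 of the 15 samples (-0.46 to -0.30), all but control replicates 2 and 3 and replicate 3 at 45 and at 405 min, and its lower level against 135 min on 9 (-0.64 to -0.48).

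**Figure D3:**
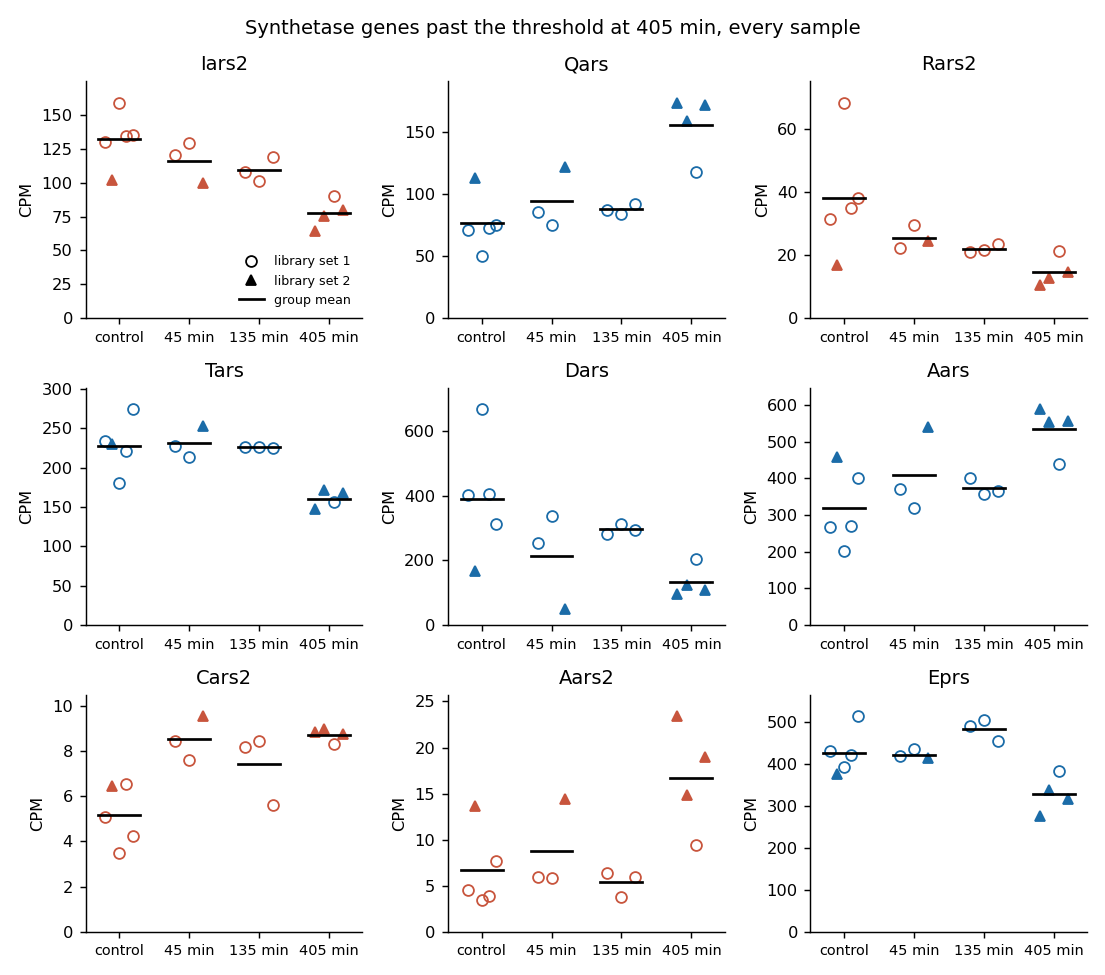
TMM-normalized CPM of the 9 synthetases past the threshold at 405 min, in every sample by group (open circles library set 1, filled triangles set 2, line the group mean), in order of adjusted p. For Qars and Cars2 every 405-min sample is above every control, for Iars2 and Tars below, and for Rars2, Dars, Aars, Aars2 and Eprs the groups overlap.

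The other members did not pass at 405 min, some of them with wide differences. Lars2 (mitochondrial leucine) had the highest log2 fold change among the 34 tested, 1.42 ± 0.55 (SE; edgeR adjusted p = 0.0698), with 12.9 to 115 CPM in controls and 49.4 to 158 CPM at 405 min, and it also differed most between the library sets, by 1.71 ± 0.26 (SE). With the set as a covariate it was at 0.70 (edgeR adjusted p = 0.13). Tars2 was at 0.89, Sars (serine) at 0.83, Farsa (phenylalanine, alpha subunit) at 0.77, Vars (valine) at 0.76 and Kars at 0.70, and with the set as a covariate these stood at 0.18, 0.28, 0.42, 0.14 and 0.23. On the falling side Nars2 was at -0.86 (edgeR adjusted p = 0.0568), Rars at -0.64 and Nars (asparagine) at -0.43, and with the covariate they stood at -0.48, -0.24 and -0.19. Farsb, the beta subunit that pairs with Farsa, was at 0.20. Values nearest 0 were those of Cars (0.00, with 96.4 to 103 CPM in controls and 95.7 to 106 CPM at 405 min), Mars (0.00), Ears2 (-0.01), Lars (0.06), Hars (0.06) and Iars (-0.07). For Cars the interval of the log2 fold change was -0.20 to 0.20, whereas for Ears2 it was -0.99 to 0.97, so changes within that interval are not excluded. Ears2 had 2.18 to 11.5 CPM in controls and 3.57 to 6.16 CPM at 405 min. The remaining members were Fars2 at 0.42, Vars2 at 0.51, Wars2 at 0.32, Gars at 0.22, Wars at 0.18, Yars at 0.10, Hars2 at -0.16, Mars2 at -0.21 and Yars2 at -0.32. Sars2 and Pars2 entered only the fit without a filter on low counts, where Sars2 was at 1.24 ± 0.63 (SE; edgeR adjusted p = 0.231) and Pars2 at 1.90 ± 0.73 (SE; edgeR adjusted p = 0.113), and neither passed.

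Enzymes for the same amino acid were set side by side, first in the fit with groups only. At 405 min Aars and Aars2 both rose, Rars2 fell while Rars stood at -0.64 without passing, and Iars2 fell while Iars stood at -0.07. Tars fell, and Tars2 stood at 0.89 without passing. With the library set as a covariate neither Aars nor Aars2 passed, whereas Tars, Iars2 and Rars2 still did. Tars2 and Rars kept their direction with smaller values, given above. Between the library sets Tars2 differed by 1.61 ± 0.23 (SE) on the log2 scale, and Tars by 0.09 ± 0.11 (SE). The difference between the enzymes of a pair was not tested.

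The change at 405 min was set against the exonic GC content of the genes. Over the 34 members, whose exons range from 41.7% GC (Dars) to 60.3% (Vars), Pearson's r between GC and log2 fold change was 0.72 and Spearman's rho 0.72, where all 9845 genes with a GC value gave 0.43 and 0.46. These are descriptions across genes that share the same 15 libraries. With the library set as a covariate r was 0.57 for members and 0.16 for all genes, and with a correction of each sample for GC it was 0.46 and -0.03. Within library set 1 alone r was 0.66 for members and 0.18 for all genes, and within set 2 alone 0.31 and -0.03. The members that fell had 41.7% to 49% GC, and those that rose 48.5% to 60%. What part GC content or library preparation had in these changes was not tested.

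**Figure D4:**
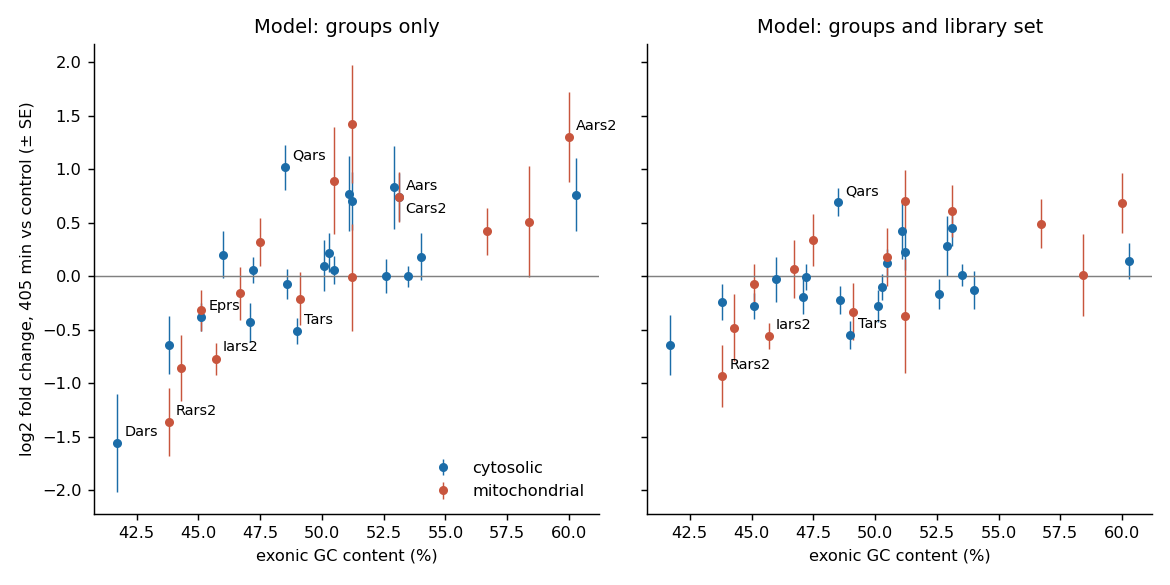
Log2 fold change at 405 min (± SE) against exonic GC content for 34 synthetases, from a model with groups only (left) and one that adds the library set (right); members with an adjusted p under 0.05 are named. The relation is closer on the left (Pearson's r 0.72 against 0.57), and Qars, Tars, Iars2 and Rars2 are named on both sides.

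By structural class, the 10 class I cytosolic enzymes (with a Rossmann-fold catalytic domain) had 1 rise and 1 fall at 405 min and a median log2 fold change of 0.03. The 10 class II enzymes had 1 rise and 2 falls and a median of 0.21, and of all genes 9.99% rose and 13.4% fell. The class I fall was that of Eprs, the joint glutamyl- and prolyl-tRNA synthetase, which was counted in class I only. Once the set was a covariate, class I had 1 rise, 0 falls and a median of -0.15, and class II 0 rises, 1 fall and a median of 0.05. In that fit 6.17% of all genes rose and 6.87% fell. Within the multi-synthetase complex 8 synthetases were tested: Qars rose, Dars and Eprs fell, and Kars (0.70), Lars (0.06), Mars (0.00), Iars (-0.07) and Rars (-0.64) did not pass, with a median of -0.04. With the covariate Qars rose, no member of the complex fell and the median was -0.20. For the complex and its scaffold proteins the shares over all genes are those given above for each fit. Of the 3 scaffold proteins of the complex, Eef1e1 fell, by 0.97 ± 0.26 (SE) on the log2 scale (edgeR adjusted p = 0.0192), Aimp1 was at -0.65 and Aimp2 at -0.13. With the library set as a covariate Eef1e1 was at -0.48 and did not pass (edgeR adjusted p = 0.124).

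The cytosolic synthetases usually listed as ATF4 targets had few calls at 405 min, in both directions. The counts below were near the shares over all genes and are not read as a trait of the list. Of 13 tested, 1 rose (Aars) and 2 fell (Eprs and Tars) at 405 min, with a median log2 fold change of 0.06. The 7 other cytosolic enzymes had 1 rise, 1 fall and a median of 0.20, and of all genes 9.99% rose and 13.4% fell. Under the covariate 0 of the 13 rose and 1 fell (Tars), with a median of -0.13. The 7 others then had 1 rise (Qars), 0 falls and a median of 0.12, and of all genes 6.17% rose and 6.87% fell. The 5 genes with an ATF4-type element in the promoter stood at 0.74 (Aars), 0.22 (Gars), 0.10 (Yars), -0.07 (Iars) and -0.51 (Tars). Atf4 mRNA itself fell at 405 min, from 402 to 468 CPM in controls to 287 to 328 CPM, with no overlap. Its log2 fold change was -0.45 ± 0.10 (SE; edgeR adjusted p = 0.00907), and -0.43 with the set as a covariate (edgeR adjusted p = 0.0114). Against 135 min it was -0.59 (edgeR adjusted p = 0.0121), and -0.56 with the covariate (edgeR adjusted p = 0.0193). ATF4 is largely controlled at translation, which mRNA-seq does not measure.

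Of the ATF4 targets that are not synthetases 19 of 22 were tested, and 2 rose and 2 fell at 405 min, with a median of -0.06. Of all genes 9.99% rose and 13.4% fell. With the library set as a covariate 1 of these targets rose and 3 fell, with a median of -0.21, beside 6.17% and 6.87% of all genes. Slc7a11, the cystine-glutamate exchanger, which NRF2 is also known to raise, rose by 3.09 ± 0.48 (SE) on the log2 scale (edgeR adjusted p = 0.000847) and had already risen at 135 min (2.11, edgeR adjusted p = 0.0478). With the covariate it rose by 2.77 at 405 min (edgeR adjusted p = 0.000452). Sesn2, a sestrin that p53 also controls, rose by 1.70 ± 0.52 (SE; edgeR adjusted p = 0.031), and with the set as a covariate it stood at 0.76 (edgeR adjusted p = 0.0502). Earlier, with the covariate, Sesn2 rose at 45 min (1.43, edgeR adjusted p = 0.0375) and at 135 min (2.39, edgeR adjusted p = 1.23e-05). In the fit with groups only it was at 1.66 and 1.80 there and did not pass. From 135 to 405 min it fell with the covariate (-1.62, edgeR adjusted p = 0.00625), 1 of 3 falls in the list, beside 2.01% of all genes. The other falls there were those of Slc7a1 (-1.01, edgeR adjusted p = 0.00434) and Slc7a5 (-1.24, edgeR adjusted p = 0.018). Slc3a2 also rose at 135 min with the covariate (0.45, edgeR adjusted p = 0.039), where 3 of the 19 rose, beside 3.06% of all genes. At 405 min Chac1, a glutathione-degrading enzyme, and Slc7a1, a transporter of cationic amino acids, fell by 1.04 and 0.54 against control. With the covariate they fell by 1.19 and 0.78 (edgeR adjusted p = 0.0221 and 0.00147). Atf5, an ATF4-related transcription factor, stood at -0.15 and fell with the covariate, by 0.74 ± 0.22 (SE; edgeR adjusted p = 0.0329). Asns, asparagine synthetase, and Ddit3 (CHOP), whose mRNAs are textbook readouts of ATF4, stood at 0.09 and 0.05 without passing. With the covariate they stood at -0.16 and -0.21, again without passing. In the fit with groups only they were at 0.42 and 0.48 at 45 min and at 0.21 and -0.38 at 135 min, and neither passed. The interval of Ddit3 shares 63 bases with that of the member Mars on the other strand. Among the eIF2 kinases Eif2ak1 rose (0.78, edgeR adjusted p = 0.0395), but with the set as a covariate it did not pass (0.53, edgeR adjusted p = 0.178).

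Among genes that act on the charged or uncharged tRNA a few passed at 405 min, where 23.4% of all genes did, or 13% with the set as a covariate. Beside these shares the counts are not read as a trait of the lists. Xpot, the exporter of tRNA from the nucleus, fell by 0.37 ± 0.10 (SE; edgeR adjusted p = 0.0245), the only one of 8 tRNA-handling genes tested to pass, and was at -0.33 with the set as a covariate (edgeR adjusted p = 0.0563). Against 135 min Xpot was at -0.53 (edgeR adjusted p = 0.0209), and at -0.48 with the covariate (edgeR adjusted p = 0.0474). Gatc, a subunit of the amidotransferase that completes mitochondrial glutaminyl-tRNA, fell by 0.59 ± 0.18 (SE; edgeR adjusted p = 0.0283), 1 of 3 tested, and was at -0.42 with the covariate (edgeR adjusted p = 0.106). Of 9 elongation factors Tufm, the mitochondrial factor that carries charged tRNA to the ribosome, rose by 1.16 ± 0.28 (SE; edgeR adjusted p = 0.012), and Tsfm, its exchange factor, fell by 0.76 ± 0.26 (SE; edgeR adjusted p = 0.0469). With the set as a covariate Tufm rose by 0.71 (edgeR adjusted p = 0.0121), whereas Tsfm stood at -0.40 and did not pass (edgeR adjusted p = 0.318).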

How the data were processed

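Each sample had 1 table of 20207 genes. According to the study's methods, poly(A) RNA was sequenced and reads were aligned to mm9 and quantified against RefSeq; the aligner version and the use of strand are not given in the sources used here. The authors deposited expected counts (estimated counts that need not be whole) and RPKM, which divides counts by gene length and depth; their Z score and root-mean-square columns were not used. RPKM served only for levels in controls, and that of control replicate 3 summed to 159800 against 261700 to 301700 in the other controls. The tables were joined by gene. Counts were rounded and tested with edgeR 4.0.16 (R 4.3.3): TMM factors, removal of genes without a count in some sample (minimum 1), a quasi-likelihood fit of all 15 samples with a term for group, and Benjamini-Hochberg adjustment over 10276 genes with a threshold of 0.05. The SE was the log2 fold change over the square root of F. The self-test on simulated counts was passed. Its counts had a lower dispersion than the main fit (0.102) and no library-set effect, so it cannot show how the uneven library sets affect the calls. Alternatives were DESeq2 1.42.0, other size factors and filters, compared groups alone, a replicate block, a lowess GC offset, the library set, and leaving out each sample. Replicate pairs differed by 12 to 274 chi-square per degree of freedom, so each sample was counted once. Library set was defined by the best split into 2 groups of the slopes on exonic GC (NCBIM37, GENCODE vM1). Only Iars had a near copy elsewhere in the genome (minimap2 2.31: 2755 of 4426 transcript bases at 93.2% identity on chr1:19321002-19323749), so its count is uncertain; reads of genes with overlapping intervals could also be split. Members, gene lists and tests were chosen with earlier results of these data known. All members are named, with values in every sample for those past the threshold in any comparison (by adjusted p at 405 min, 12 at most); of each partner list those past the threshold and up to 4 others are named. One promoter sequence is not reported here.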

Additional observations from a re-analysis of the deposited data

Results flagged for a closer look

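Values that stood far from the rest of their group were sought in the controls and in the 405-min samples with Dixon's criterion at the 95% level on the log2 scale; chance flags about 1 in 20 groups, and 3 of 72 were flagged. Farsb (48.5 CPM) and Yars (91.3 CPM) were low in replicate 3 at 405 min, the only sample of that group in library set 1. Wars2 (17.4 CPM) was low in replicate 2 at 405 min. Eprs was the member whose level at 405 min differed from that at 135 min by a test of the difference itself (-0.56 on the log2 scale, edgeR adjusted p = 0.0363).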

How the results depend on the processing

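Counts of cytosolic synthetases changed at 405 min against control (5) became 2 with compared groups only, 1 with the replicate block, 2 with the block and GC offset, 2 with the library set as a covariate, 3 with that covariate without replicate 3 at 45 min, 0 in set 1 alone, 0 in set 2 alone, and 2 to 11 without single samples (11 without control replicate 2, 8 without replicate 3 at 405 min, 2 without control replicates 1 or 4 or 405-min replicates 1, 2 or 4). Counts of mitochondrial ones (4) became 2 with no filter, 1 with compared groups only, 2 with the replicate block, 2 with the set as a covariate, 2 and 1 with that covariate without control replicate 3 and without replicate 3 at 45 min, 0 in each set alone, and 2 to 7 without single samples (7 without control replicate 2). Against 135 min the cytosolic count (1) became 2 with RLE factors, 4 with DESeq2, 0 with no filter, 7 with compared groups only, 0 with the replicate block, 2 with the GC offset, 0 with both, 0 with the set as a covariate, 6 and 0 with that covariate without control replicate 3 and without replicate 3 at 45 min, 0 in set 1 alone and 0 to 3 without single samples. The mitochondrial count there (0) became 2 with DESeq2, 7 with compared groups only, 1 with the GC offset and 0 to 2 without single samples. At 135 min the counts of 0 became 1 (Kars, up) and 1 (Rars2, down) with the covariate and without replicate 3 at 45 min. At 45 min every alternative gave 0. The 135-min group has no sample in set 2, so no value exists there. Of all genes tested, the share called at 405 min against control was 7.86% with compared groups only, 7.79% with the replicate block, 14.3% with the block and GC offset and 8.8% with no filter. Without control replicate 1 it was 14.3%, and without control replicate 2 it was 48.4%. Against 135 min it was 5.22% with RLE factors, 14.6% with DESeq2, 1.06% with no filter, 26.3% with compared groups only, 0.146% with the block, 8.42% with the GC offset, 1.83% with both and 10.8% with the covariate without control replicate 3. As the share over all genes moved too, the counts without single samples, also those of 1 at 135 min, are not read as a trait of the members. The cause of these moves was not tested.

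Yars reversed, from 0.10 to -0.36 (edgeR adjusted p = 0.0219), with the set as a covariate and without control replicate 3. Qars, Tars, Iars2 and Rars2 kept their calls at 405 min without any single sample, with values of 0.88 to 1.20, -0.60 to -0.43, -0.85 to -0.69 and -1.58 to -1.07; Rars2 lost its call with the covariate and without replicate 3 at 45 min. The other called members lost theirs without single samples in 6 (Aars, Dars, Cars2), 9 (Aars2) and 11 (Eprs) of 15 cases. Every median stayed within 1 SD over the controls of its main value. That SD (0.338 for cytosolic and 0.293 for mitochondrial genes, on the log2 scale) was wide beside the medians, so it did not test their stability. A change of sign could lie within it, as for cytosolic genes at 405 min, from 0.08 to -0.06 with the set as a covariate. The 2 alternatives that join the covariate with a left-out sample were chosen after seeing the data.

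Replicate numbers did not pair the samples: same-numbered samples of different groups had a mean correlation of deviations of -0.11 over 19 pairs, 4 of them over 0.1, and 2 of 14 samples correlated best with their own number. With the replicate block Qars (1.03), Iars2 (-0.76) and Rars2 (-1.31) kept their calls. Control means were under 10 CPM for Aars2, Cars2, Ears2, Fars2, Mars2, Nars2, Tars2, Vars2, Sars2 and Pars2, where counting error limits the precision.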
